A study of Mus musculus with 4 samples.

Results

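Fibroblast growth factors (FGFs) signal between the mesenchyme and the epithelium of the growing lung. A set of 10 genes of this pathway was taken for description. It holds the ligands *Fgf7*, *Fgf9* and *Fgf10*, the receptors *Fgfr1* and *Fgfr2*, the ETS transcription factors *Etv4* and *Etv5*, and the inhibitors *Spry1*, *Spry2* and *Dusp6*. The genes were chosen by name, with earlier results of these data known. All 10 had a probe set with exactly 1 gene symbol among the 19938 genes measured in this way. *Etv5*, the only gene of the set with more than 1 probe set, was read from the brighter one. Embryonic lungs of C57BL/6 mice at E18.5, in the saccular stage, were compared on Affymetrix arrays between *Hmga2*+/+ embryos (WT, 2 arrays) and *Hmga2*−/− embryos (KO, 2 arrays). HMGA2 is a chromatin-associated protein of the high-mobility-group family. The line was bred from *Hmga2*+/− mice and the mutation is carried in the germline, so it is not limited to a cell type, the labels name no treatment, and whole lungs were measured. The labels call the arrays of each group biological replicates, but both WT titles carry the same name and number, while the KO titles are numbered apart. Whether the WT arrays came from separate sources is not said there. The p-values measure the spread between these arrays, and an exact permutation test of 2 against 2 arrays could not go below p = 0.333. The values are log2 values made by the authors with RMA, and all differences are log2 differences, KO minus WT. The comparison asks which transcripts of the lung differ when HMGA2 is missing.

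In the lung bud, FGF10 is made by the distal mesenchyme and acts on the epithelium through a splice form of FGFR2, where it drives bud outgrowth. FGF7 uses the same receptor form. FGF9 comes from the mesothelium and the epithelium and signals to the mesenchyme through FGFR1 and FGFR2. Bound receptors activate the kinase ERK, which raises the transcription of *Etv4* and *Etv5* and of inhibitors such as *Spry1*, *Spry2* and *Dusp6* that dampen the signal again. ETV5 is also kept on in alveolar type II cells, which make surfactant.

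The lungs carried the marks of distal lung on every array, with *Sftpc*, the surfactant protein gene of type II cells, between 13.98 and 14.13. The *Hmga2* probe set had log2 values of 9.35 and 9.59 in WT and of 9.65 and 9.39 in KO, so it does not separate the genotypes. The sources used here do not say which exons it reads, so it checks nothing about the mutation, and groups are given as labelled. WT replicate 1 stood apart, with Pearson correlations over probe sets of 0.976 to 0.985 with the other arrays, against 0.992 to 0.997 among those. Of all genes, 58.3% were lower in WT replicate 1 than in WT replicate 2, and of the 10 genes 8 were. KO replicate 2 was below KO replicate 1 in 78.3% of all genes and in 8 of the 10. Fewer cells of a type and less RNA per cell cannot be told apart in whole lung.

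Among the FGF genes, *Fgf9*, *Etv5* and *Etv4* had the largest positive differences, and *Spry1* and *Fgf10* the largest negative ones. *Fgf7*, *Dusp6* and *Spry2* lay close to 0. With limma and adjustment over all genes at 0.05, 0 of the 10 passed, against 0.782% of all genes (0.0802% higher and 0.702% lower in KO). The smallest difference in size among the genes that passed was 0.84, and the largest of an FGF gene was 0.51. At an unadjusted p under 0.05 there were 2 of the 10, *Fgf9* and *Etv5*, both higher in KO, where 5.88% of all genes were at this p and higher. A 1.2-fold difference was exceeded by 4 of the 10 (30.5% of all genes), by *Fgf9*, *Etv5* and *Etv4* on the higher side (13.4% of all genes) and by *Spry1* on the lower side (17.1%). KO and WT arrays did not overlap for 8 of the 10, against 49.4% of all genes. The mean was higher in KO for 7 of the 10, against 41.2% of all genes. The median difference of the 10 was 0.047, and that of all genes −0.051.

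**Figure D1:**
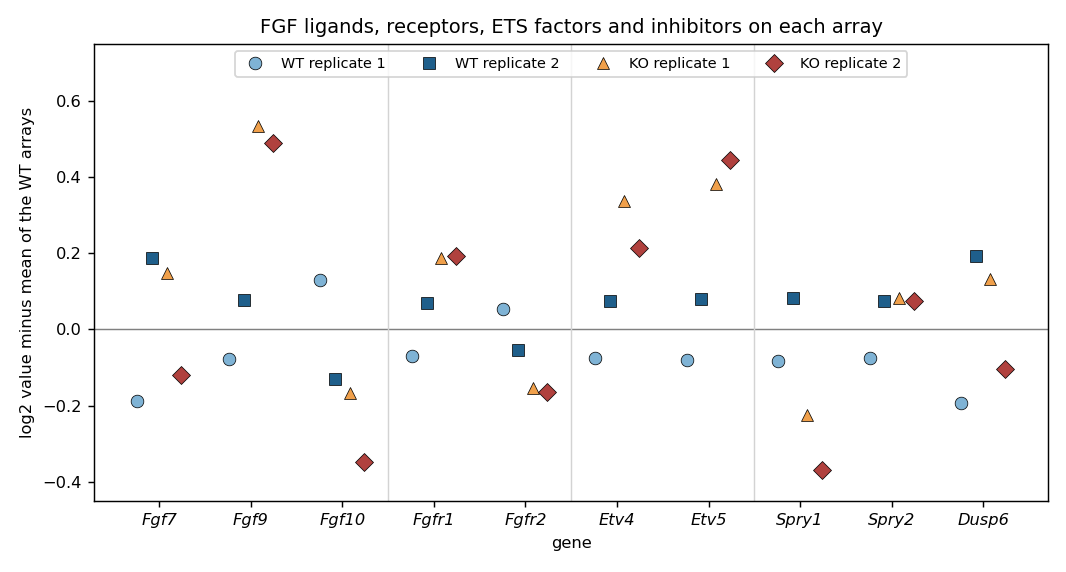
Each point is 1 gene (x axis) on 1 array, plotted on the y axis relative to the WT mean of that gene in log2 units, with circles and squares for WT and triangles and diamonds for KO. Both KO points lie above both WT points for *Fgf9*, *Etv4* and *Etv5* and below them for *Spry1*, while the groups interleave for *Fgf7* and *Dusp6*.

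Among the ligands, *Fgf9* had a higher mean in KO, *Fgf10* a lower one, and *Fgf7* was close to 0. *Fgf9* had log2 values of 7.56 and 7.71 in WT and of 8.17 and 8.12 in KO, a rather dim level at percentile 44.6 of all genes. Each KO array was above each WT array, and the arrays of a genotype differed by 0.16 in WT and 0.043 in KO. The difference was 0.51 (standard error 0.13, adjusted p = 0.159 from limma), a fold change of 1.43 with a 95% interval of 0.20 to 0.83 on the log2 scale. It was 0.59 against WT replicate 1 alone and 0.43 against WT replicate 2 alone, and a lone WT array has no spread of its own. *Fgf10* had log2 values of 10.52 and 10.26 in WT and of 10.23 and 10.04 in KO. The groups did not overlap, but WT replicate 2 and KO replicate 1 lay closer together than the WT arrays did. Its difference was −0.26 (standard error 0.15, adjusted p = 0.467 from limma), about equal in size to the 0.26 between the WT arrays. It was −0.39 against WT replicate 1 alone and −0.13 against WT replicate 2 alone, again with a lone WT array. *Fgf7* had log2 values of 9.42 and 9.80 in WT and of 9.76 and 9.49 in KO. Both KO arrays fell between the WT arrays. The difference was 0.014 (standard error 0.18, adjusted p = 0.977 from limma), with a 95% interval from −0.42 to 0.44, and it changed sign with the WT array used, at 0.20 and −0.17.

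The start of *Fgf9* is shown because it is the gene of the set with the largest difference. The window runs from 250 bases before to 50 bases after the start in RefSeq's annotation of GRCm38.p6, at chr14:58072436-58072735 on the plus strand, and is written in lower case since it held none of the motifs searched.
Fgf9: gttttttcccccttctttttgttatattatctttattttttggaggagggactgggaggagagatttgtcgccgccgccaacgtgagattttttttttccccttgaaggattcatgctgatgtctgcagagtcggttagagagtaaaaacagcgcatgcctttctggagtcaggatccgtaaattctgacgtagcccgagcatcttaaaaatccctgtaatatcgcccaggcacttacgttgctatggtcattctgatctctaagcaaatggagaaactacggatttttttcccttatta
Windows of this kind were found for 8 of the 10 genes, with 2 starts for *Etv5*, and none is shown for *Etv4* or *Fgfr1*. They were searched on both strands for AGGAAG, the PEA3 site that factors of the ETV4 group bind, and for CCGGAA, another site of ETS factors. The third motif was CTTTGA, the core that TCF and LEF factors of the WNT pathway bind. Both ETS sites are read around the same GGAA, and a given GGAA can belong to 1 of them only. AGGAAG occurred in windows of *Etv5*, *Dusp6* and *Fgfr2*, that is in 3 of 9 windows, against 35.4% of all 32851 windows in the table. CCGGAA occurred in 1 of 9, that of *Spry2*, against 14.9%, and CTTTGA in 0 of 9, against 16%. The *Fgf9* window was richer in A and T (57.3%) than the median window (47.3%).

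The receptor genes had small differences of opposite sign. *Fgfr1*, the main receptor of the mesenchyme, had log2 values of 10.34 and 10.48 in WT and of 10.60 and 10.61 in KO. The KO arrays were almost equal to each other and above both WT arrays. The difference was 0.19 (standard error 0.13, adjusted p = 0.514 from limma). *Fgfr2*, which the study also treats as a target of canonical WNT signaling, had log2 values of 12.32 and 12.21 in WT and of 12.12 and 12.11 in KO. Here both KO arrays lay below both WT arrays, by a margin close to the gap between the WT arrays. The difference was −0.16 (standard error 0.13, adjusted p = 0.577 from limma), with a 95% interval from −0.46 to 0.15. The study reports the other direction by quantitative RT-PCR, with *Fgfr2* expression higher in KO lung. One probe set stands for *Fgfr2*, so its epithelial and mesenchymal splice forms were not separated. The signs of both receptors were the same against either WT array, at 0.26 and 0.12 for *Fgfr1* and at −0.21 and −0.10 for *Fgfr2*.

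**Figure D2:**
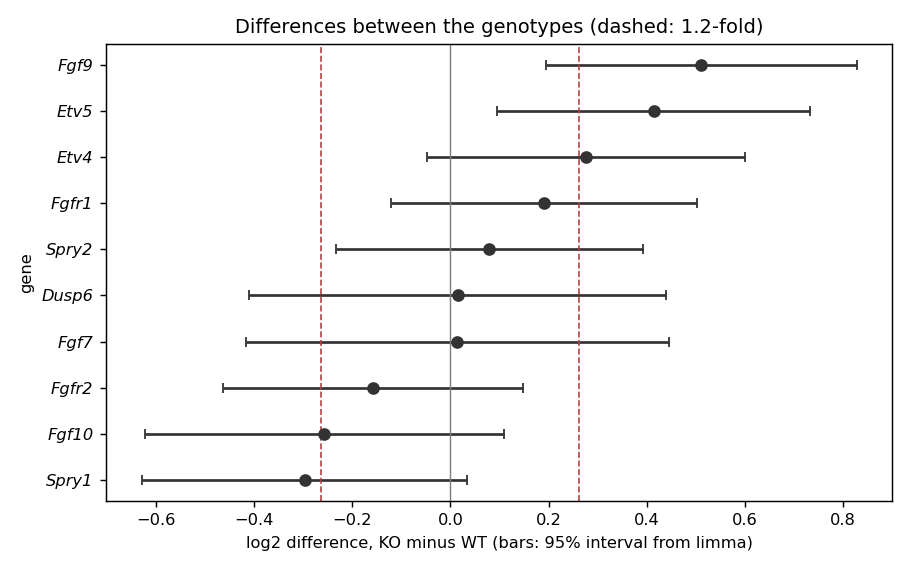
Points are log2 differences (x axis, KO minus WT, 2 arrays each) of the 10 genes (y axis), bars are 95% intervals from limma, and dashed lines mark a 1.2-fold change. The intervals of *Fgf9* and *Etv5* lie above 0, and those of the other 8 genes include it.

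The ETS factor genes *Etv5* and *Etv4*, which ERK signaling turns on, both had a higher mean in KO. *Etv5* had log2 values of 11.17 and 11.34 in WT and of 11.64 and 11.70 in KO. The KO arrays were clear of the WT arrays. The difference was 0.41 (standard error 0.13, adjusted p = 0.232 from limma), with a 95% interval of 0.095 to 0.73. *Etv5* was read by a further, dimmer probe set, with values of 10.73 and 11.08 in WT and of 11.48 and 11.44 in KO. That probe set gave 0.56 (standard error 0.16, adjusted p = 0.192 from limma in its place), so the direction did not depend on which of them stood for the gene. With a lone WT array, the brighter probe set gave 0.49 without WT replicate 2 and 0.33 without WT replicate 1. *Etv4* had log2 values of 7.15 and 7.29 in WT and of 7.56 and 7.43 in KO. The groups did not overlap, and KO replicate 2 and WT replicate 2 were 0.14 apart. Its difference was 0.28 (standard error 0.13, adjusted p = 0.405 from limma). *Etv4* was the only gene of the set among the dimmest 40 percent of all genes.

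The windows at both *Etv5* starts, on the minus strand of chromosome 16 in GRCm38.p6, are shown because *Etv5* is an ETS factor and the sites searched are those of its own family. Capitals mark AGGAAG, which lies 1 base beyond the start base in the window at chr16:22438319-22438618 and is missing from the other, at chr16:22439521-22439820.
Etv5 start with the site: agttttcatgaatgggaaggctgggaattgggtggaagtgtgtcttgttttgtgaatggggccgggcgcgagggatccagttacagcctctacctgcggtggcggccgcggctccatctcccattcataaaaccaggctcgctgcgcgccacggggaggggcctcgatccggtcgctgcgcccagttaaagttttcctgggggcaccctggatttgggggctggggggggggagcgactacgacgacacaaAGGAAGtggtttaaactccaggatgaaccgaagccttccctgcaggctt
Etv5 start without it: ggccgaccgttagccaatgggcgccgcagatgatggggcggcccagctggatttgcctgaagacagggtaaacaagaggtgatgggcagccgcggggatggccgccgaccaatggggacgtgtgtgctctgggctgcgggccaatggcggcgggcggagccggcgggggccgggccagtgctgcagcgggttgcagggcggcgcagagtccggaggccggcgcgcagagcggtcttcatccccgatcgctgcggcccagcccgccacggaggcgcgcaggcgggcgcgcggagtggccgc
The window without the site held 26.0% A and T, the lowest share among the 9 windows. Which start was used in these lungs was not measured.

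The feedback inhibitors had a negative difference for *Spry1* and values near 0 for *Spry2* and *Dusp6*. *Spry1*, an inhibitor of receptor tyrosine kinase signaling, had log2 values of 11.17 and 11.33 in WT and of 11.02 and 10.88 in KO. Both KO arrays lay below both WT arrays. The difference was −0.30 (standard error 0.14, adjusted p = 0.386 from limma), with a 95% interval from −0.63 to 0.034, and it was −0.22 and −0.38 against WT replicates 1 and 2 alone. *Spry2*, its relative of the same function, had log2 values of 8.77 and 8.91 in WT and of 8.92 and 8.91 in KO. WT replicate 2 was level with the KO arrays. It differed by 0.079 (adjusted p = 0.785 from limma, standard error 0.13), which was 0.15 against WT replicate 1 alone and 0.0058 against WT replicate 2 alone. *Dusp6*, a phosphatase that switches ERK off, had log2 values of 10.86 and 11.25 in WT and of 11.19 and 10.95 in KO. As for *Fgf7*, both KO arrays fell between the WT arrays, and the difference was 0.015 (standard error 0.18, adjusted p = 0.9754 from limma). It was 0.21 against WT replicate 1 and −0.18 against WT replicate 2.

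*Spry1* is shown at its start, at chr3:37639697-37639996 on the plus strand of GRCm38.p6, as the gene of the set with the most negative difference. It held none of the 3 motifs.
Spry1: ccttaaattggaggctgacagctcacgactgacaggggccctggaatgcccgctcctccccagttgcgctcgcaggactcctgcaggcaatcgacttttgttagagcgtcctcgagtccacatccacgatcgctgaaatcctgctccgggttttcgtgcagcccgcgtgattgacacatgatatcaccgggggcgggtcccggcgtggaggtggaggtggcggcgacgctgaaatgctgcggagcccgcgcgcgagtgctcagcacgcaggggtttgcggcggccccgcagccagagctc

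Within an array, the difference between a pair of genes does not depend on a shift that both share. Of the 45 pairs of the 10 genes, *Fgf9* against *Spry1* changed most, by 0.81 in favour of *Fgf9*. This pair differed by only 0.0095 between the WT arrays and by 0.10 between the KO arrays. *Etv5* against *Spry1* changed by 0.71, with 0.0030 between the WT arrays and 0.21 between the KO arrays. *Fgf9* against *Fgf10* changed by 0.77, with 0.42 between the WT arrays. These pairs were picked after their values were seen, and the changes are given without a test.

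**Figure D3:**
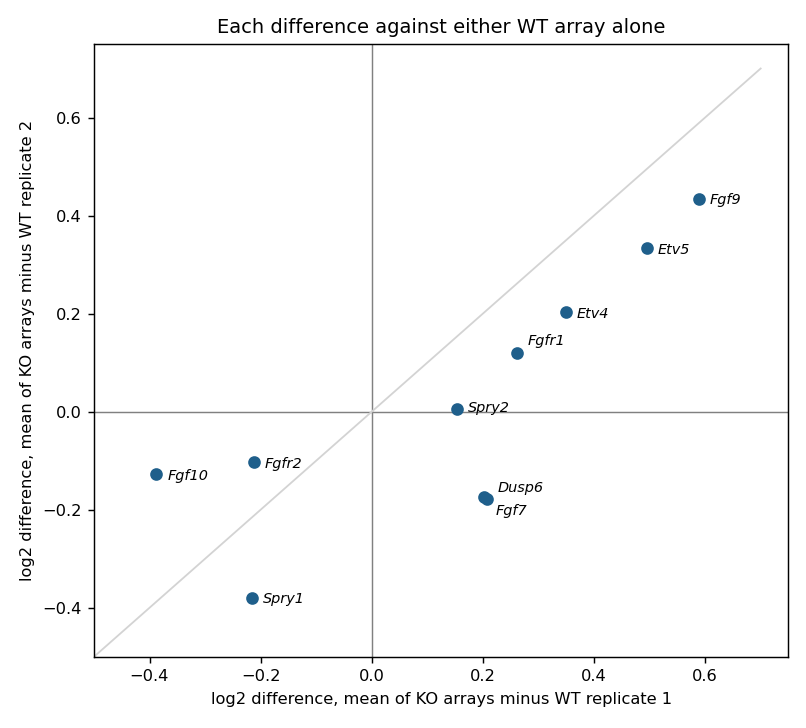
Each point is 1 gene, as the mean of the KO arrays minus WT replicate 1 (x axis) and minus WT replicate 2 (y axis), both on the log2 scale, with the grey diagonal marking equal differences. *Fgf7* and *Dusp6* lie in the quadrant where the sign depends on the WT array, and the other 8 genes keep their sign.

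Over the 10 genes, the median gap was 0.16 between the WT arrays and 0.093 between the KO arrays, against 0.20 and 0.12 over all genes. The median size of the difference was 0.22 for the 10 genes and 0.17 for all genes. For 4 of the 10, *Fgf7*, *Fgf10*, *Spry2* and *Dusp6*, the WT arrays differed from each other by more than the genotypes did. The same held for 11411 of all 19938 genes. The median of the 10 was 0.21 against WT replicate 1 alone and −0.049 against WT replicate 2 alone.

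Genes of the wider pathway were set beside these. In the lists that follow, 0 genes passed limma's adjusted threshold (0.782% of all genes). Without WT replicate 2, where the lone WT array has no spread of its own, 6292 of all genes passed, and with them 4 ligands, 4 genes of the receptor list, 5 signal carriers, 2 feedback inhibitors, 1 ETS factor, 4 ERK readouts, 12 heparan sulfate genes and 6 lung bud genes. Of the 18 secreted FGF ligands, 5 were higher on average in KO and 13 lower, and the median difference was −0.077. *Fgf9* was the 1 ligand at an unadjusted p under 0.05 (14.5% of all genes). *Fgf18*, a ligand made by lung mesenchyme, had 0.24 (adjusted p = 0.485 from limma), with values of 9.94 and 10.21 in WT and 10.39 and 10.24 in KO. The endocrine ligands *Fgf21* and *Fgf15* had −0.28 and −0.19, and *Fgf17* had −0.14. Each of these was smaller in size than the difference of *Fgf9*.

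The 12 receptors, co-receptors and binding proteins lay on both sides of 0, 3 above and 9 below, around a median of −0.15 that was −0.20 against WT replicate 1 alone and −0.041 against WT replicate 2 alone. At an unadjusted p under 0.05 there were 2 higher (5.88% of all genes) and 2 lower (8.58%). *Flrt2*, a membrane protein with leucine-rich repeats that can bind FGF receptors, had log2 values of 7.51 and 8.37 in WT and of 9.37 and 9.18 in KO. KO was higher on each array, and WT replicate 1 was the lowest by a wide margin. The difference reached 1.33 (adjusted p = 0.104 from limma, standard error 0.28). It passed with the dimmest 40 percent of genes left out (adjusted p = 0.0443 from limma), and was 0.90 without WT replicate 1. *Fgfrl1*, a receptor-like protein without a kinase domain, had 0.59 (adjusted p = 0.267), and also lay lowest in WT replicate 1. On the lower side were *Fgfbp1*, a secreted carrier that releases FGFs from the matrix, with −0.46 (adjusted p = 0.200), and *Flrt3* with −0.33 (adjusted p = 0.310).

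Signal carriers between the receptor and ERK had a median difference of −0.016, with 9 above and 11 below 0 among the 20 measured of 27 listed. *Pik3r1*, a regulatory subunit of phosphoinositide 3-kinase, was the only 1 at an unadjusted p under 0.05 (14.5% of all genes). *Pik3r1* had values of 11.87 and 11.65 in WT and of 11.30 and 11.25 in KO, which is −0.49 (adjusted p = 0.195 from limma, standard error 0.14). *Crkl*, an adaptor protein, had 0.30, the exchange factor gene *Sos2* −0.23 and the kinase subunit *Pik3ca* −0.23.

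Feedback inhibitors as a list had a median of −0.0032, with 6 of 13 above 0 and 7 below, and it was 0.15 against WT replicate 1 alone and −0.064 against WT replicate 2 alone. The list includes *Spry1*, *Spry2* and *Dusp6*. *Dusp9*, a phosphatase of ERK related to *Dusp6*, stood out with log2 values of 7.99 and 8.13 in WT and of 8.84 and 8.92 in KO. The genotypes lay much farther apart than the arrays of either one. Its difference was 0.82 (standard error 0.13, adjusted p = 0.0589 from limma), short of the threshold. *Dusp9* was the 1 gene of the list at an unadjusted p under 0.05 (14.5% of all genes). It passed with cyclic loess (0.80, adjusted p = 0.0423 from limma) and without the dimmest 40 percent of genes (adjusted p = 0.0388). Without WT replicate 1 it was 0.75. *Spry4* also had a lower mean, with values of 10.70 and 10.96 in WT and of 10.59 and 10.34 in KO, which is −0.36 (adjusted p = 0.369, standard error 0.16). Without WT replicate 1 *Spry4* was −0.49, with a lone WT array. *Dusp7* had −0.24 and *Spry3* 0.27.

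The 10 ETS factors had a median of 0.054, with 7 above and 3 below 0, but the median was 0.23 against WT replicate 1 alone and −0.076 against WT replicate 2 alone. *Etv5* and *Erf* had an unadjusted p under 0.05 (14.5% of all genes). *Erf*, an ETS repressor that ERK inactivates, had 0.34 (standard error 0.13, adjusted p = 0.298 from limma). *Ets1* had −0.26, *Elk4* −0.13 and *Etv1* 0.16, and *Etv1* was −0.026 against WT replicate 2 alone. A further list held 10 genes known as readouts of ERK activity, 4 of them from the set described above. In this list 9 were above 0 and only *Spry4* below (8 and 2 with cyclic loess), with a median of 0.17. *Spry1*, with −0.30, was not in the list. *Etv5* alone had an unadjusted p under 0.05 (14.5% of all genes). The median was 0.32 against WT replicate 1 alone and 0.015 against WT replicate 2 alone. *Epha4*, an ephrin receptor, had 0.26, the cyclin gene *Ccnd1* 0.24 and the phosphatase gene *Dusp4* 0.18. Against WT replicate 2 alone, *Ccnd1* had 0.089 and *Dusp4* −0.064.

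**Figure D4:**
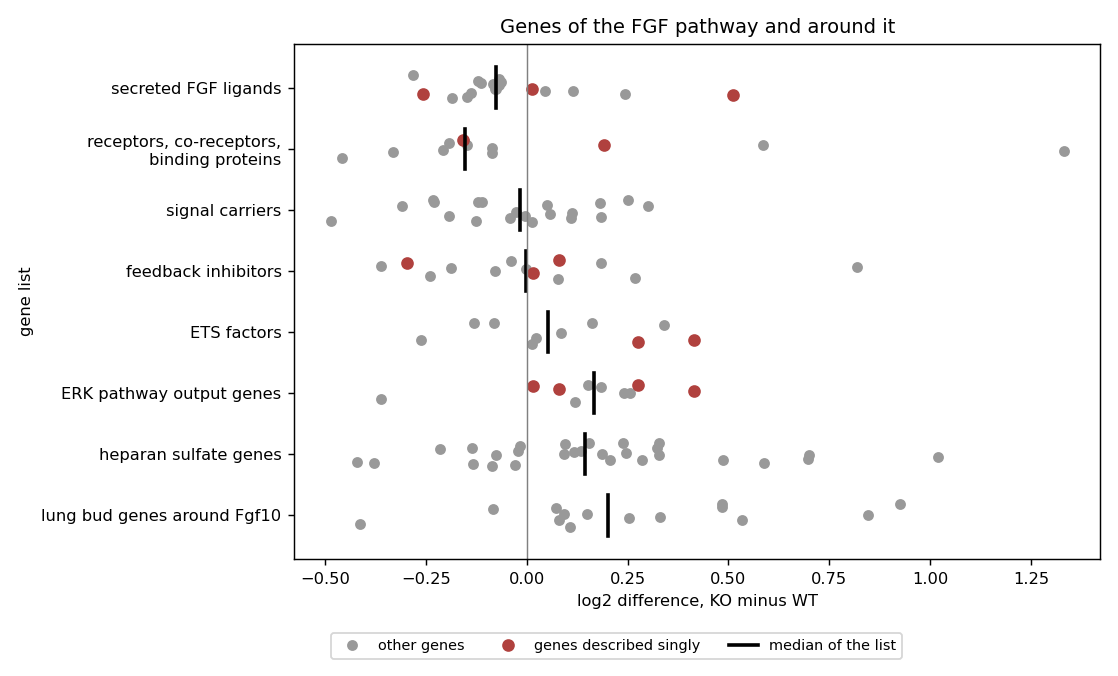
Each point is the log2 difference (x axis, KO minus WT) of 1 gene, grouped by list (y axis), with red for the 10 genes described singly and black bars for list medians. Medians run from −0.15 for receptors, co-receptors and binding proteins to 0.20 for lung bud genes around *Fgf10*, and *Flrt2* lies farthest from 0 at 1.33.

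Heparan sulfate, a sugar chain of the cell surface and matrix, holds FGFs and their receptors together. Of 28 measured genes that build, edit or carry it, 18 were above 0 and 10 below, around a median of 0.14 that was 0.26 against WT replicate 1 alone and 0.024 against WT replicate 2 alone. At an unadjusted p under 0.05 there were 6 higher (5.88% of all genes) and 1 lower (8.58%). *Gpc1*, a glypican that carries the chains, had log2 values of 8.91 and 9.05 in WT and of 9.67 and 9.68 in KO. *Gpc6*, another glypican, had 9.53 and 9.52 in WT and 10.32 and 10.13 in KO. In both, the KO arrays were well clear of the WT arrays, with differences of 0.70 for *Gpc1* (standard error 0.13, adjusted p = 0.0824 from limma) and 0.70 for *Gpc6* (standard error 0.13, adjusted p = 0.0859). *Sulf2*, which removes sulfate groups from the chains, had 0.59 (adjusted p = 0.205). *Hs6st2*, which adds them, had 1.02 (adjusted p = 0.219) and was 0.52 without WT replicate 1. In that setting, with a lone WT array, *Gpc1* was 0.63, *Gpc6* 0.70 and *Hs2st1* −0.51. The gene on the lower side was *Hs2st1*, another sulfotransferase, with −0.42 (adjusted p = 0.242), named after its values were seen.

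Of 14 genes that act around *Fgf10* in the lung bud, 12 were above 0 and 2 below, around a median of 0.20. *Sox9*, a marker of distal tip progenitors, had log2 values of 9.46 and 10.04 in WT and of 10.67 and 10.52 in KO. *Mycn*, which drives growth of the same cells, had 8.17 and 8.96 in WT and 9.55 and 9.43 in KO. For both, WT replicate 1 was lowest and WT replicate 2 between it and the KO arrays. Their differences were 0.85 for *Sox9* (standard error 0.21, adjusted p = 0.149 from limma) and 0.93 for *Mycn* (standard error 0.26, adjusted p = 0.182). Without WT replicate 1, with a lone WT array, they were 0.56 and 0.53, and *Gli1* was 0.65. At an unadjusted p under 0.05 there were 5 higher (5.88% of all genes) and 1 lower (8.58%). Beside *Sox9* and *Mycn* these were *Gli1*, *Wnt7b* and *Ptch1*, with 0.48, 0.53 and 0.33, and, as the lower one, *Hhip*, an inhibitor of hedgehog signaling, with −0.41. *Wnt7b* was 0.81 against WT replicate 1 alone and 0.26 against WT replicate 2 alone. *Wnt7b* and *Ptch1* were named after their values were seen. The list median was 0.27 against WT replicate 1 alone and 0.038 against WT replicate 2 alone.

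Markers of the cells that make or receive FGFs, and of other cells, were read beside these genes. Of 8 type II cell markers, 7 were lower in KO, and *Etv5* was the exception. Without *Etv5*, their summed linear level ran from 59838 to 62336 in WT and from 40536 to 40561 in KO. *Sftpd*, *Lamp3* and *Sftpa1* fell (limma over all genes), with *Sftpd* at −3.07 (adjusted p = 0.00742). *Sftpc*, counted among the lower markers, had only −0.096 (adjusted p = 0.728 from limma). The study reports *Sftpc* reduced in KO lung by quantitative RT-PCR. All 7 type I cell markers were lower, with sums of 29288 to 29852 in WT and 18697 to 18811 in KO, and *Aqp5* and *Rtkn2* fell. Epithelial markers were higher in 7 of 10 (sums of 22679 to 26324 in WT and 25182 to 26628 in KO) and mesenchymal markers in 6 of 9 (45782 to 47811 and 44759 to 44762), with *Dcn* rising. Of 6 mesothelial markers 4 were lower (9263 to 9957 and 7009 to 7825), and *Msln* fell by 1.42 (adjusted p = 0.0303 from limma). *Upk1b* had −0.58 (adjusted p = 0.121 from limma), while *Wt1* and *Upk3b* had 0.069 and −0.049. Smooth muscle markers were higher in 6 of 6 (10246 to 12232 and 12277 to 13287), and endothelial markers lower in 6 of 7 (26212 to 27322 and 21811 to 22589). Macrophage and neutrophil markers were lower in 9 of 9 (11155 to 12159 and 4416 to 4756), where *Lyz2* fell, and erythroid markers in 4 of 4 measured (3790 to 3838 and 2605 to 2731). Markers of cycling cells were higher in 7 of 7 measured (10336 to 15613 and 21859 to 23418), without a gene that passed. There is no detection call, so these values do not say whether a dim marker was absent. The part of these cells in the differences of the FGF genes was not tested.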

How the data were processed

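Total RNA of embryonic lung was biotin-labelled and hybridised to Affymetrix arrays, 1 per sample. The authors deposited log2 values from RMA, run in Affymetrix Expression Console per the labels. RMA subtracts background, puts all arrays on 1 distribution and combines the probes of each of 30177 probe sets, which tends to shrink fold changes. The array medians over genes still differed, at 8.19 for WT replicate 1, 8.34 for WT replicate 2, 8.34 for KO replicate 1 and 8.19 for KO replicate 2. A gap between the arrays of a genotype can hold part of such a shift. Versions were not given in the sources used here. There is no detection call, and with 4 arrays precision is limited by their number.

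The platform annotation gives 21789 probe sets 1 symbol, 1621 several (not analysed here) and 6767 none. Each of 19938 genes was represented by its brightest probe set. All 10 FGF genes matched RefSeq by Entrez ID.

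KO minus WT was tested with limma (3.58.1, R 4.3.3), using lmFit and eBayes with no trend. There were 2 residual and 4.42 prior degrees of freedom, and p-values were adjusted by Benjamini-Hochberg over all genes at 0.05. The code was tested on simulated data. Members and lists were chosen with earlier results of these data known. Named are the 10 genes, up to 4 other genes of each list with the smallest p, *Hmga2* and defining markers. Promoter windows came from RefSeq (GRCm38.p6). The alternatives were a replicate block, median centring, cyclic loess, a filter that drops the dimmest 40 percent of genes, averaging a gene's probe sets, eBayes with trend and robust, each array left out, and a threshold of 0.10. A crossed block and the dimmer *Etv5* probe set were added after seeing the data. Python 3.11.15 with matplotlib 3.10.9 drew the figures.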

Additional observations from a re-analysis of the deposited data

How the results depend on the processing

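None of the 10 FGF genes passed the test under any alternative except leaving out WT replicate 2, where passing was common among all genes. *Fgf9*, *Etv5* and *Fgf10* were 0.59, 0.49 and −0.39 there, with a lone WT array. The differences of the other 8 genes than *Fgf7* and *Dusp6* kept their direction under each alternative run, except that *Etv4* has no value with the dimmest 40 percent of genes left out, since it is among them. *Fgf7* turned to −0.044 and *Dusp6* to −0.037 with cyclic loess, to −0.17 and −0.18 without WT replicate 1 and to −0.12 and −0.10 without KO replicate 1. *Hmga2* turned to −0.0058, −0.069 and −0.076 in the same settings. With single arrays left out, *Fgf7* ran from −0.17 to 0.20, *Dusp6* from −0.18 to 0.21 and *Hmga2* from −0.076 to 0.18. The cause was not tested. With either WT array left out, each of the 10 genes and *Hmga2* had the same standard error of 0.15. Passing there followed the size of the difference and not a gene's own spread. Leaving out any 1 array leaves a lone array in its group. Over these settings, the number of the 10 genes that passed ran from 0 to 3, and their median difference from −0.049 (without WT replicate 1) to 0.21 (without WT replicate 2). The count ran from 0 to 4 for ligands, 0 to 4 for receptors, co-receptors and binding proteins, 0 to 5 for signal carriers, 0 to 2 for feedback inhibitors, 0 to 1 for ETS factors, 0 to 4 for ERK readouts, 0 to 12 for heparan sulfate genes and 0 to 6 for lung bud genes. Over all genes it ran from 0 (without KO replicate 2) to 6292 (without WT replicate 2), and genes past 1.2-fold from 4069 to 9234.

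With the replicate number as a block, 602 genes passed in place of 156, among them *Flrt2*, *Dusp9* and *Mycn*, 1 in each of their lists, and 0 of the 10. Same-numbered arrays deviated in opposite directions (r = −0.238 over genes), so the numbers are not taken to pair the samples, and with the pairing crossed 512 genes passed, with 1 each among receptors and feedback inhibitors. With centring 294 passed, with cyclic loess 350 and 1 feedback inhibitor, without the dimmest 40 percent 301, 1 receptor-list gene and 1 feedback inhibitor, and at a threshold of 0.10 457, 1 feedback inhibitor and 2 heparan sulfate genes, *Gpc1* and *Gpc6*.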
